A study of Homo sapiens with 4 samples.

Results

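hsa-miR-191-5p and hsa-miR-425-5p are the major products of neighbouring hairpins in 1 intron of DALRD3, and both have been used as reference miRNAs in expression studies. They were followed here by name in the miRNA table of the series, as 2 of its 843 entries, to see how steady each was between pull-down probes and between cell lines. The series measured miRNAs by small RNA sequencing (miR-seq) in material from RNA pull-down assays of HGC27 and AGS cells, both established human gastric cancer lines. All cells stably overexpressed the FN1 3′-UTR, the untranslated end of the fibronectin mRNA, from a lentivirus, the controls included. Lysate of each line was incubated with beads carrying an RNA probe to that region, positive or negative, which gave 4 groups: HGC27 negative probe, HGC27 positive probe, AGS negative probe and AGS positive probe. Each group held 1 library, so there were no replicates. The methods name biotinylated antisense RNA on the beads but do not say which probe it was. The strand of each probe could thus not be settled from the labels or the methods. A value is the amount recovered from beads, not the amount in the cell.

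A miRNA hairpin is cut from a longer primary transcript by Drosha and then by Dicer into a duplex of its 5p and 3p arms, of which 1 usually stays bound to Argonaute while the other is lost. Bases 2 to 8 of the bound strand, the seed, pair with target mRNAs. Because miR-191 and miR-425 are made from the same primary transcript, they share their transcription, whereas cutting, arm choice and decay can differ between them.

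The mature sequences are given because the seeds set the 2 members apart although they come from 1 locus, and because the other arms bear on the arm ratios. They run 5′ to 3′ with the seed in capitals.
hsa-miR-191-5p: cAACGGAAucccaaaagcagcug
hsa-miR-425-5p: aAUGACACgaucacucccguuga
hsa-miR-191-3p: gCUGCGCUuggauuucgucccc
hsa-miR-425-3p: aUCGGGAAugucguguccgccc
On GRCh38.p14 the 5p arms lie on the minus strand at chr3:49020672-49020694 (miR-191-5p) and chr3:49020199-49020221 (miR-425-5p), and their hairpins are separated by 383 bases. The hairpins, at chr3:49020618-49020709 and chr3:49020148-49020234, fell in intron 1 of 4 of the 15 annotated DALRD3 transcripts and in no exon of any of them. NDUFAF3, which encodes an assembly factor of mitochondrial complex I, runs over the miR-191 hairpin on the opposite strand. The sequence of miR-425-5p was taken from the deposited table and found in its RefSeq hairpin, and the others are as in RefSeq. No other entry of the table, and no other of the 2545 human mature miRNAs in RefSeq, had the seed of either member. No predicted entry was a length variant of them. The 7 letters complementary to the seed were not found in the 1101 bases of the FN1 3′-UTR, on either strand, for any of the 4 arms. Of the 570 known miRNAs in the table, 7.37% had such letters in the sense strand and 7.72% in the antisense strand.

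The table held 1296853 to 2955078 counts per library, spread over 342 to 609 entries. miR-372-3p, of a cluster typical of stem cells, took 80.8% of the counts with the negative probe and 37.5% with the positive probe in AGS, but 0.178% and 0.3% in HGC27. Any value scaled to library size in AGS therefore depended on this 1 miRNA. Epithelial markers (the miR-200 family with miR-141-3p) were listed with 4 or 5 of 5 members in each library. They summed to 0.13% and 0.0762% of the counts in HGC27 and to 2.02% and 0.21% in AGS, with the negative and the positive probe. The red blood cell list summed to 3 to 28 counts, miR-122-5p of liver to 6 to 48 and the muscle list to 56 to 340. miR-143-3p and miR-145-5p, of smooth muscle and fibroblasts, summed to 0.138% and 0.704% in HGC27 and to at most 0.00949% in AGS.

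miR-191-5p was an abundant miRNA in 3 of the libraries and dropped out of that range in the AGS positive probe library. It had 4118 counts in HGC27 with the negative probe, 2662 in HGC27 with the positive probe, 2465 in AGS with the negative probe and 178 in AGS with the positive probe. These were 0.283% (exact 95% interval 0.275 to 0.292), 0.205% (0.198 to 0.213), 0.0834% (0.0802 to 0.0868) and 0.0117% (0.01 to 0.0135) of the counts. None of these intervals overlapped another, so the order of the 4 shares held against counting error, which is the only error such intervals cover. It did not hold against the scaling. With totals without miR-372-3p, and with 2 other scalings given below, AGS with the negative probe was highest. Its rank by count was 36 of 574, 41 of 609, 23 of 342 and 65 of 361 listed entries.

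miR-425-5p, from the same transcript, was scarce everywhere. It had 50 counts (exact 95% interval 37.1 to 65.9) in HGC27 with the negative probe and 9 (4.12 to 17.1) with the positive probe. In AGS it had 41 counts (29.4 to 55.6) and 8 (3.45 to 15.8) with the same probes. It thus ranked 178, 308, 115 and 190 in the 4 libraries. Both positive probe libraries were low, and with 9 and 8 counts they could not be told apart at this depth.

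**Figure D1:**
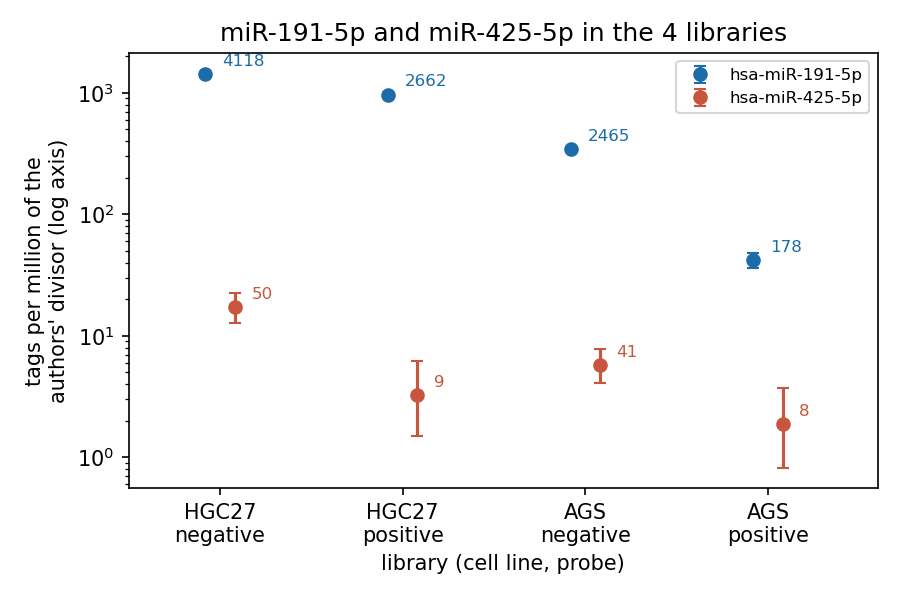
Tags per 1000000 (counts over the divisor behind the authors' score, log axis) of miR-191-5p and miR-425-5p in the 4 libraries, with the count printed beside each point and exact 95% intervals for counting error as bars. miR-191-5p lies above miR-425-5p in every library, and the gap is smallest at 178 against 8 counts in AGS with the positive probe.

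Next, the probes were compared within each line on the deposited score, which is tags per 1000000 rounded to whole numbers. A ratio was that of score + 1, and an entry with a ratio of at least 2 or at most 0.5 was called higher or lower, among entries with at least 10 counts in 1 library of the pair. miR-191-5p was close to level between the probes in HGC27 and lower with the positive probe in AGS. In HGC27 its score was 1417 with the negative and 963 with the positive probe, a ratio of 0.68 (log2 -0.56, exact interval -0.63 to -0.49), which did not reach the call. In that pair 33.3% of 366 entries were lower and 28.1% higher, and 42.6% of entries had a lower ratio than miR-191-5p. In AGS its score was 343 with the negative and 42 with the positive probe, 8.0-fold lower (log2 -3.0, exact interval -3.27 to -2.82). Of 230 entries in that pair, 31.3% were lower and 40.4% higher, and 19 entries, or 8.26%, had a lower ratio than miR-191-5p. The epithelial markers fell in the same pair of libraries, from 2.02% to 0.21% of the counts, and their part in this difference was not tested.

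miR-425-5p was called lower with the positive probe in both lines. In HGC27 its score was 17 with the negative and 3 with the positive probe, 4.5-fold lower (log2 -2.17), and the exact interval from the counts was -3.61 to -1.36. In AGS the scores were 6 and 2, 2.33-fold lower (log2 -1.22), and the interval of -2.91 to -0.5 reached changes smaller than 2-fold. In HGC27 33.3% of entries were called lower, and 13.1% had a lower ratio than miR-425-5p. In AGS these shares were 31.3% and 25.7%. With a pseudocount of 10, which is above most of its scores, the AGS value was -0.42 and no longer a call.

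The same libraries were then paired by probe to compare the lines, so the line ratios share their libraries with the probe ratios above. On the deposited score both members were higher in HGC27 than in AGS, but so were most miRNAs. With the negative probe 85.8% of 330 entries were higher in HGC27 and 8.79% lower, with a median log2 ratio of 2.81. miR-191-5p was 4.12-fold higher (log2 2.04, exact interval 1.97 to 2.12) and miR-425-5p 2.57-fold higher (log2 1.36, interval 0.97 to 2.22), both under that median. These directions depended on the scaling. Under TMM, an edgeR scaling that rests on the bulk of the entries, they were -0.99 for miR-191-5p and -1.32 for miR-425-5p. The median of all entries was then 0.69, and both members lay under it, as on the deposited score. A scaling moves all ratios alike except through the pseudocount, so the wider gap to the median is not a result about the members. Without miR-372-3p in the totals miR-191-5p was at -0.61 and miR-425-5p at -0.99, with a median of 1.01.

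With the positive probe 74.7% of 332 entries were higher in HGC27 and 13.0% lower, with a median of 2.58. miR-191-5p was 22.4-fold higher in HGC27 (log2 4.49, exact interval 4.31 to 4.76), above 86.4% of entries, and it was higher under each scaling tried, by log2 1.96 to 4.49. miR-425-5p, at scores of 3 and 2, had a ratio of 1.33 (log2 0.42), with an interval of -0.75 to 2.37 that spans no change. Its 9 and 8 counts kept it out of the entries counted for this pair, and its sign turned under TMM (-0.99), where the median of all entries was 0.96.

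**Figure D2:**
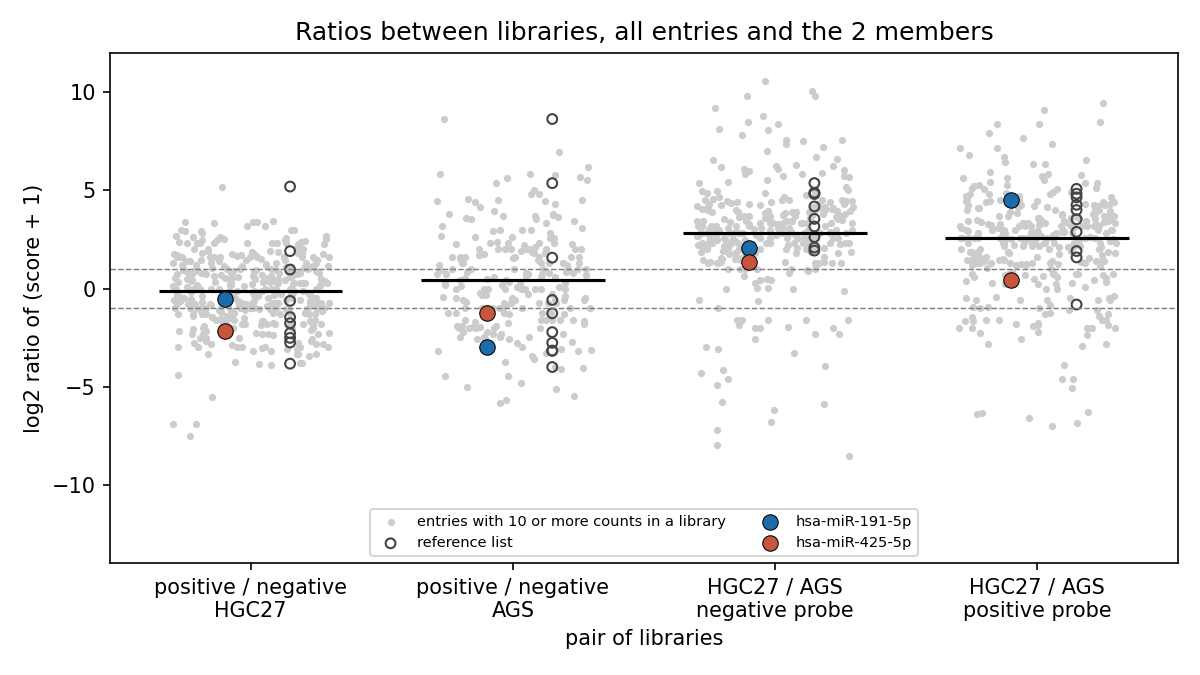
Log2 ratio of score + 1 in each of the 4 pairs of libraries, for entries with at least 10 counts in 1 library of the pair (grey), the 10 miRNAs of the reference list (open circles) and the 2 members (filled circles); black bars are medians of the grey points and dashed lines mark a 2-fold ratio. Both members lie below the median in both probe pairs and with the negative probe between lines, while miR-191-5p lies above it between lines with the positive probe.

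The only test with more than 1 library on each side took all 4 libraries in edgeR's quasi-likelihood model, with the lines standing in for replicates of the probe and the probes for replicates of the line. Neither member passed at an adjusted p of 0.05. For the probe, miR-191-5p had a log2 change of -2.20 ± 1.42 (SE, edgeR adjusted p = 0.361) and miR-425-5p of -2.40 ± 1.10 (edgeR adjusted p = 0.159), and both were lower with the positive probe in 2 of 2 lines. Of 271 entries tested for the probe, 19 (7.01%) were called, 11 higher and 8 lower, and 55 were under an unadjusted p of 0.05. For the line, miR-191-5p had 0.40 ± 1.41 (edgeR adjusted p = 0.857) and miR-425-5p -1.70 ± 1.08 (edgeR adjusted p = 0.259), where 81 entries (29.9%) were called. The probe value of miR-191-5p came mainly from AGS. As a TMM-scaled ratio of 2 libraries, which is no edgeR fit, the probe change was log2 -0.49 in HGC27 alone and -3.76 in AGS alone. Scaled to library totals alone, the line effect of miR-191-5p was 2.95 and was called (edgeR adjusted p = 0.0218). In that setting 169 of 271 entries were called for the line, 154 of them higher, and the median of all entries was 3.17. The model left 1 residual degree of freedom, which is how far the probe change differed between the lines. The coefficient of variation of 0.612 was estimated from such differences. A p above the threshold therefore does not show that the members were level.

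The ratio of the members within a library needs no scaling, because both counts come from the same reads. miR-191-5p was more abundant than miR-425-5p in every library, but by amounts that differed between them. In HGC27 it was 82.4 times (exact 95% interval 62.4 to 111) with the negative probe and 296 times (156 to 648) with the positive probe. In AGS it was 60.1 times (44.2 to 84.0) with the negative probe and 22.2 times (11.1 to 52.3) with the positive probe.

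The 2 negative probe libraries differed by a factor of 1.37 (exact interval 0.881 to 2.12), which spans no difference. The 2 positive probe libraries differed by a factor of 13.3 (4.39 to 39.2). From the negative to the positive probe the ratio of the members went up 3.59-fold in HGC27 (1.74 to 8.32) and down 2.7-fold in AGS (1.08 to 5.95). With the positive probe, miR-425-5p lost more than miR-191-5p in HGC27, and miR-191-5p lost more in AGS. This rested on 9 and 8 counts of miR-425-5p in the positive probe libraries.

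The arms of the hairpins were compared in the same way. miR-191-3p, the arm that is usually lost, was listed only in HGC27 with the positive probe, at 4 counts against 2662 of miR-191-5p, a ratio of 666 (260 to 2440). The table holds no count under 2, so an arm that is not listed may have had 1 read. miR-425-3p had 4 counts in HGC27 with the negative probe, 22 in HGC27 with the positive probe and 2 in AGS with the negative probe, and was not listed in AGS with the positive probe. The 5p arm of miR-425 was thus 12.5 times the 3p arm (4.59 to 47.7) in HGC27 with the negative probe and 20.5 times (5.32 to 175) in AGS with the negative probe. In HGC27 with the positive probe the order turned, with 0.409 reads of the 5p arm for 1 of the 3p arm (0.166 to 0.924). The 3p arm made up 7.41% of the reads of this hairpin with the negative probe (exact interval 2.06 to 17.9) and 71.0% with the positive probe (52.0 to 85.8). The shift was 30.6-fold (7.52 to 143) towards the 3p arm. Among 49 hairpins with at least 2 counts of each arm in both HGC27 libraries and at least 10 counts of each arm in all, hsa-mir-425 had the lowest shift, 4 including it shifted as far in either direction, and the median log2 shift was -0.11. That rank rests on 4 counts of the 3p arm with the negative probe and 9 of the 5p arm with the positive probe. How far counting error sets it was not tested. By score (8 against 1), miR-425-3p was 4.5-fold higher with the positive probe in HGC27. Its exact interval from the counts was 1.96 to 23.1. miR-425-5p was 4.5-fold lower (3 against 17). Of all entries in that pair, 28.1% were called higher and 33.3% lower.

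**Figure D3:**
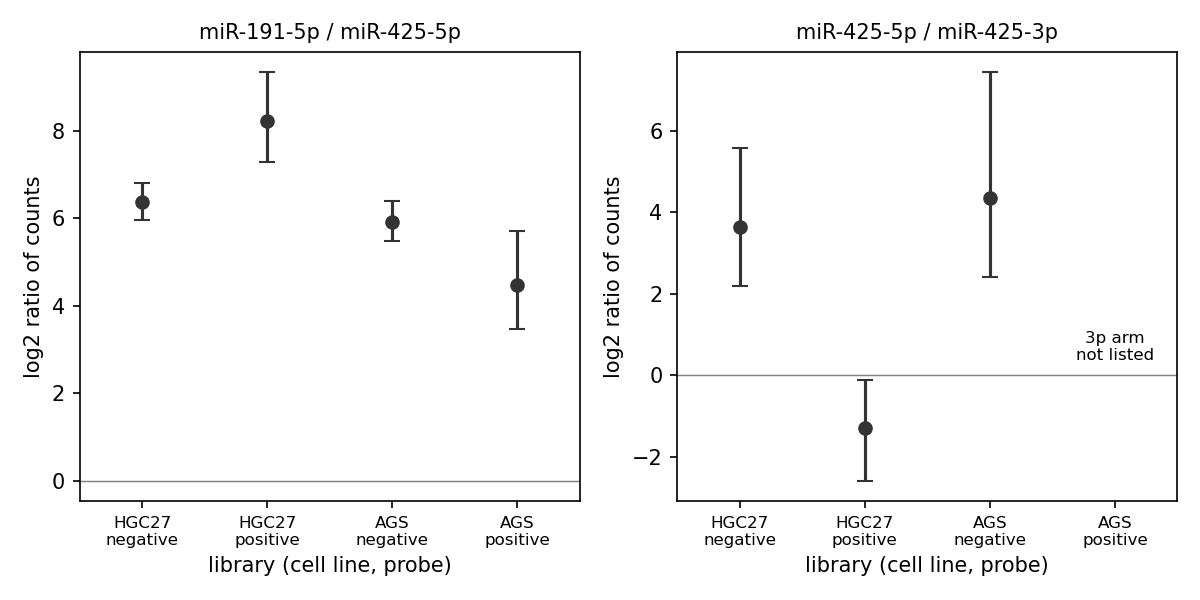
Log2 ratio of counts within each library, of miR-191-5p over miR-425-5p (left) and of the 5p over the 3p arm of miR-425 (right), with exact 95% intervals for counting error as bars and the line of equal counts at 0. On the left the HGC27 positive probe library is highest (8.21) and the AGS positive probe library lowest (4.48); on the right only the HGC27 positive probe library lies under 0 (-1.29).

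Steadiness was described as the range of log2(score + 1) over the 4 libraries. miR-191-5p ranged over 5.04, that is 33.0-fold, from HGC27 with the negative probe to AGS with the positive probe. Among 48 entries with at least 100 counts in every library, 27 had a smaller range, and the median was 4.45 (0.94 to 8.64). The lowest library was the same under TMM, DESeq2 size factors and totals without miR-372-3p, but the highest was then AGS with the negative probe. Its range was 3.75 under TMM, 3.39 (10.5-fold) with DESeq2 size factors and 4.52 without miR-372-3p, with 31, 27 and 36 of the 48 smaller. miR-425-5p did not reach 100 counts in any library. Among the 227 entries listed in all 4 libraries, a set chosen after seeing its counts, its range was 2.58 (6.0-fold), with 47 smaller, and that of miR-191-5p had 146 smaller. A range at scores of 2 to 17 is held down by the pseudocount and by the depth, so the smaller value of miR-425-5p is no measure of its steadiness.

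The ratio of the members ranged over log2 3.73 across the libraries, and this was set beside 12 other pairs of miRNAs that share a cluster. In 4 of these pairs the table lists 2 precursors for at least 1 of the miRNAs, so that their reads can also come from another locus. In the other 8 pairs, a set chosen after seeing the data, the ranges had a median of 2.5 (0.69 to 5.92), and 4 of 8 were smaller than that of miR-191-5p over miR-425-5p. Over all 12 the median was 1.66, and 7 were smaller. miR-17-5p over miR-20a-5p ranged over 0.69 and miR-182-5p over miR-183-5p over 0.82. miR-99b-5p over miR-125a-5p, with at least 11201 counts everywhere, ranged over 5.92. The comparison had been planned for pairs with at least 100 counts of both miRNAs in every library. Only 2 of the 12 reached this, of which 1 had a smaller range, and miR-191-5p with miR-425-5p did not. The minimum was not kept, so most of these ranges also hold counting error. The range of the members thus lay inside that of the other pairs.

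A list of 10 miRNAs other than the members often used as references was compared in the same way. Of those with at least 100 counts in every library, miR-26a-5p had a smaller range (4.15) than miR-191-5p (5.04). The ranges of miR-25-3p (5.84), miR-103a-3p (6.72), let-7a-5p (7.28) and miR-423-5p (8.64) were larger. Under TMM, miR-25-3p (2.91) and miR-26a-5p (2.94) ranged over less than miR-191-5p (3.75), and the others over more. On the deposited score, 6 of the 10 were lower and 2 higher with the positive probe in HGC27, where 33.3% and 28.1% of all entries were. The median log2 ratio was -1.61 against -0.12 for all entries. In AGS 6 were lower and 3 higher, where 31.3% and 40.4% of all entries were, with a median of -1.74 against 0.42. In both lines 5 to 7 of the 10 were lower under each scaling tried. With TMM this was 6 in each line, beside 93 of 366 entries in HGC27 and 88 of 230 in AGS. Between lines 10 were higher in HGC27 with the negative probe and 9 with the positive probe on the deposited score, where 85.8% and 74.7% of all entries were. Under TMM 5 and 6 of the 10 were higher, beside 145 of 330 and 162 of 332 entries, so these shares of the list lay near those of all entries. miR-103a-3p stood at log2 -3.83 and -3.17 for the positive over the negative probe in HGC27 and AGS. At the other end miR-423-5p stood at 5.2 and 8.64, and let-7a-5p was at 1.9 and 5.37. The paper names the former among the miRNAs most enriched by its pull-down in both lines, and gives a luciferase assay for its binding. It names the latter among miRNAs bound to the same untranslated region. Whether their high ratios bear on their steadiness as references was not tested. miR-191-5p kept within 2-fold of 2 of the 10 between probes in HGC27, 4 in AGS, 3 between lines with the negative probe and 4 with the positive probe. For miR-425-5p these numbers were 5, 2, 2 and 1. Counts were also divided by those of a member, a step chosen after seeing the data. With miR-191-5p, 35.2% of entries were then at least 2-fold higher and 18.0% lower between probes in HGC27. In AGS these shares were 77.8% and 11.3%. Between lines they were 55.2% and 13.6% with the negative probe and 30.4% and 49.7% with the positive probe. With miR-425-5p they were 70.2% and 6.56%, 62.2% and 17.8%, 62.4% and 10.9%, and 65.4% and 16.9% in the same order.

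The profiles most like the members were those with the smallest root mean square difference of centred log2(score + 1), among 43 or 44 known miRNAs with at least 100 counts in every library. For miR-191-5p they were miR-26a-5p (0.38), miR-148a-3p (0.65), miR-744-5p (0.75), miR-182-5p (0.85) and miR-7-5p (1.02). miR-26a-5p, itself on the reference list, had scores of 3668, 2371, 960 and 205 in the order HGC27 negative, HGC27 positive, AGS negative and AGS positive probe. Like miR-191-5p, it was lowest in AGS with the positive probe. For miR-425-5p the nearest were miR-29a-3p (0.35), miR-99b-5p (0.49), miR-7-5p (0.54), miR-532-5p (0.86) and miR-10a-5p (1.02). miR-29a-3p had scores of 347, 90, 135 and 35, low with the positive probe in both lines. The members differed from each other by 1.46, and the profile of miR-425-5p rests on scores of 2 to 17.

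**Figure D4:**
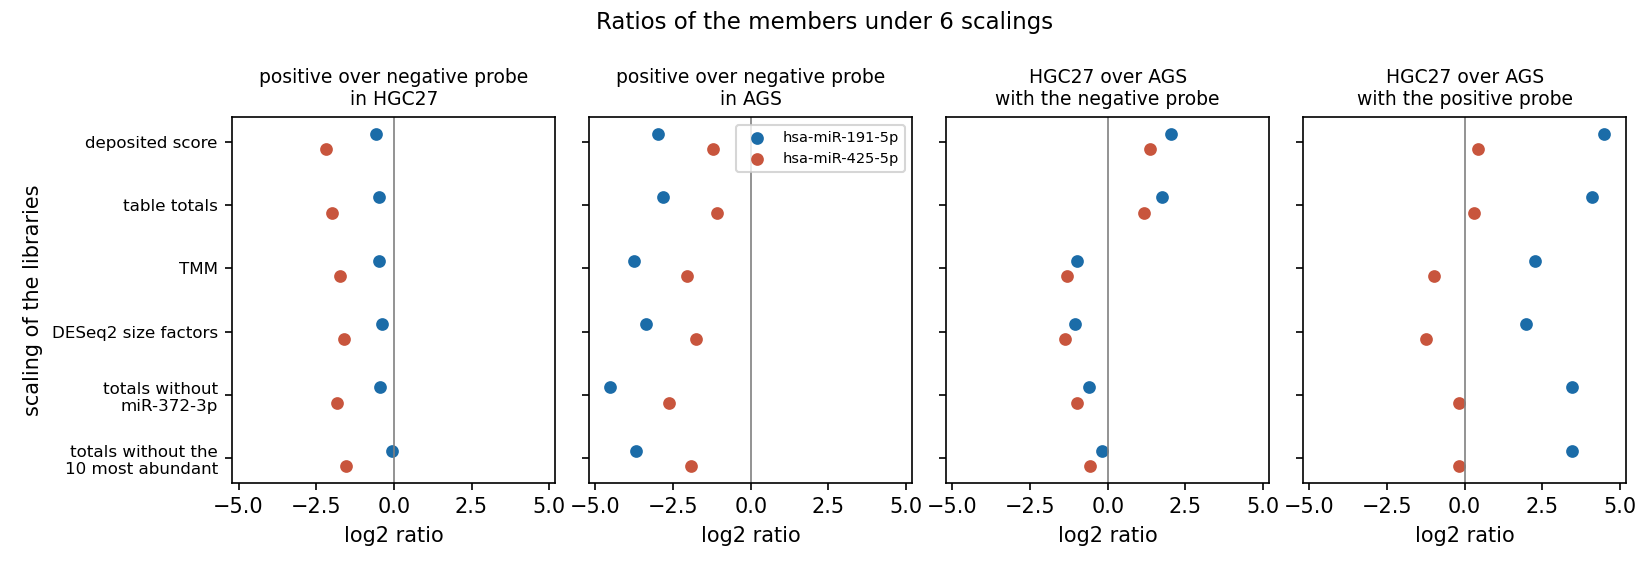
Log2 ratios of miR-191-5p and miR-425-5p in the 4 pairs of libraries (panels) under 6 scalings of the libraries (rows), with 0 marking equal levels. All probe ratios lie under 0 in each scaling shown, whereas with the negative probe the line ratios of both members turn from above 0 (2.04 and 1.36 on the deposited score) to under 0 in 4 of the 6 scalings.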

How the data were processed

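RNA pull-down material of the HGC27 and AGS cells overexpressing FN1 3′-UTR was sequenced for miRNAs in 4 libraries, 1 per group. The submitters' processing notes name cutadapt 1.9.3, Novoalign 3.02.12 and hg38. Deposited by the authors were unnormalized tag counts for each mature miRNA and precursor, and a score of tags per 1000000 rounded to whole numbers. The 901 rows were collapsed to 843 mature names, of which 570 were known and 273 predicted, and a blank was taken as 0 (the lowest count listed was 2). The scores had been divided by 2763261 to 7179162 tags, of which the table totals were 35.7% to 50.0%, and why was not given in the sources used here. Library totals were 1452832, 1296853, 2955078 and 1527390 counts (HGC27 negative and positive, AGS negative and positive probe).

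Ratios used score + 1. Intervals were exact and 95%, binomial or Poisson for 1 count and conditional for ratios, with the recovered divisors where libraries were compared. They cover counting error only, as each group held 1 library. The paper names no molecular identifiers for these libraries, and the intervals take each tag as an independent count. Unrounded values had been planned for, and the ratio was kept for the rounded score. Counts were tested in edgeR 4.0.16 (R 4.3.3) with TMM, filterByExpr on the probe, line and probe as additive terms, its quasi-likelihood test, with adjustment by Benjamini-Hochberg over 271 entries. The standard error was the absolute log2 change over the square root of F. The model was tested on simulated data with the same mean profile in all libraries and no line effect. That test therefore does not cover the composition of the AGS libraries. DESeq2 1.42.0 was an alternative. Other scalings, pseudocounts, filters and thresholds were also tried. Gene positions came from GENCODE and sequences from RefSeq.

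The miRNAs named were the members, their other arms, a reference list of 10, 12 pairs within clusters, and the 5 nearest profiles of each member, besides markers of epithelium, red blood cells, liver, muscle and smooth muscle or fibroblasts. The members and all lists were chosen with earlier results of these data known. Separate cultures are not stated. The edgeR p-values set each line or probe effect against the departure of these 4 libraries from additive effects, not against a spread between replicates.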

Additional observations from a re-analysis of the deposited data

Results flagged for a closer look

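The change of the ratio of miR-191-5p over miR-425-5p from the negative to the positive probe went in opposite directions in the lines, with log2 1.84 in HGC27 and -1.43 in AGS. The ratio of miR-423-5p, one of the reference list, was log2 2.62 for HGC27 over AGS with the negative probe and -0.82 with the positive probe, while under TMM it was -0.38 and -3.07, both lower in HGC27. Each rests on 1 library per group, and neither difference was tested. The paper names the miRNA from the reference list among those most enriched by its pull-down.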

How the results depend on the processing

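Depth limits miR-425-5p (8 to 50 counts) and the 3p arms, and the composition of the AGS libraries limits every comparison between lines. No analysis paired by replicate number was possible because the labels give none. The edgeR comparison of the probes was blocked by cell line, and that of the lines by probe. No length variant was listed that could be added to a member, and miR-425-5p could not be ranked at 10 counts or more in every library. Of the log2 values under alternatives fixed at the outset, 51 stayed within the counting interval or error or, in a test, kept direction and call, 23 moved further, 15 turned the direction and 1 gained a call. Of the numbers and shares of entries, 22 stayed within 1.5 times and 19 did not. Of those added after seeing the data, 12 log2 values and 11 numbers met the same bars, although scaling to a member moved the split of higher and lower entries by over 10 percentage points in 6 of 8 cases. The cluster pairs with a smaller range than the members went from 7 of 12 to 4 of 8 with 1 precursor for each miRNA. The cause was not tested in any case.

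The probe ratio of miR-191-5p in HGC27 (log2 -0.56) was -0.47 with table totals, -0.37 with DESeq2 size factors, -0.46 without miR-372-3p and -0.06 without the 10 most abundant miRNAs. In AGS (-3.0) it was -2.82, -3.39, -4.52 and -3.68 in the same order, -3.75 with TMM and -2.76 with a pseudocount of 10. That pseudocount gave -1.05 and -0.42 for miR-425-5p in HGC27 and AGS. Between lines with the negative probe, miR-191-5p (2.04) was 1.76 with table totals and turned to -0.99 with TMM, -1.06 with DESeq2 size factors, -0.61 without miR-372-3p and -0.17 without the 10 most abundant. miR-425-5p (1.36) turned to -1.32, -1.37, -0.99 and -0.57 in the same 4 settings and was 0.75 with a pseudocount of 10. With the positive probe, miR-191-5p (4.49) was 4.11 with table totals, 2.27 with TMM, 1.96 with DESeq2 size factors, 3.44 without miR-372-3p, 3.45 without the 10 most abundant and 4.23 with a pseudocount of 10. miR-425-5p (0.42) turned to -0.99, -1.23, -0.18 and -0.18 with TMM, DESeq2 size factors, without miR-372-3p and without the 10 most abundant.

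Entries past the ratio in either direction were 225 and 165 for the probes in HGC27 and AGS and 312 and 291 for the lines with the negative and positive probe. They were 540, 285, 566 and 603 with no filter and 89, 84, 149 and 131 with at least 100 counts. With a threshold of 4 they were 99 and 103 for the probes. The share of calls that were higher moved from 56.4% to 37.0% in the AGS probe pair without miR-372-3p (64 higher, 109 lower). Between lines with the negative probe it moved from 90.7% to 68.7% with TMM (145 and 66) and 74.6% without miR-372-3p (167 and 57). With the positive probe it moved from 85.2% to 67.2% with TMM (162 and 79).

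Beside the edgeR probe effect of miR-191-5p (-2.20), the TMM-scaled ratio of the 2 libraries of a line, which is no fit, was -0.49 in HGC27 and -3.76 in AGS. The TMM-scaled ratio of the lines was -0.99 with the negative probe alone and 2.28 with the positive probe alone. The edgeR line effect of miR-191-5p (0.40) was 2.95 and called with library totals only, and turned to -0.68 with only the line in the model. The line effect of miR-425-5p (-1.70) turned to 0.91 with library totals only. Probe calls (19) were 35 with DESeq2 size factors in edgeR and 49 with the DESeq2 Wald test. They were 0 with edgeR on library totals only (52 at an unadjusted p under 0.05), unfiltered (66), for entries of at least 10 counts in each library (16) and with only the probe in the model (17). Line calls (81) were 169 with library totals only, 15 with at least 10 counts in every library and 0 with no filter (95 at an unadjusted p under 0.05).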

Other observations

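As both members are used as references, the counts of each library were also divided by those of 1 member, an alternative chosen after seeing the data. Scaled to miR-191-5p, 179 of 230 entries (77.8%) were higher with the positive probe in AGS and 26 lower, against 93 and 72 on the deposited score, and the median log2 ratio was 3.35 instead of 0.42. In HGC27 the same scaling gave 129 of 366 higher and 66 lower, against 103 and 122. Between lines with the positive probe it gave 101 higher and 165 lower in HGC27, against 248 and 43, and with the negative probe 182 and 45, against 283 and 29. Scaled to miR-425-5p, 257 of 366 entries (70.2%) were higher with the positive probe in HGC27 and 24 lower, with a median of 2.00, and in AGS 143 of 230 were higher and 41 lower. Between lines that scaling gave 206 higher and 36 lower with the negative probe and 217 and 56 with the positive probe. The members thus gave different counts of higher and lower miRNAs for the same libraries, and the scaling to miR-425-5p carries the counting error of 8 to 50 reads.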
